A study of Mus musculus with 5 samples.

Results

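The BCL2 family decides at the mitochondrial outer membrane whether a stressed cell survives, and 10 of its genes were examined in prostate tumors of castrated and intact TripleTg mice. They were taken by symbol from the 24527 genes of the deposited count table, with 3 survival members (Bcl2, Bcl2l1 and Mcl1) and 7 death-promoting members (Bcl2l11, Bbc3, Pmaip1, Bid, Bad, Bax and Bak1). All 10 were present and all 10 passed the filter on low counts. Bulk RNA-seq was performed on prostate tissue of 3 castrated and 2 intact mice with prostate cancer (PCa). Every mouse carried the same alleles, labelled hHGFtg, hMETtg, BCAT and PBCre. These are a human HGF transgene, 1 copy of a human MET transgene that needs Cre to remove a stop cassette, 1 Ctnnb1 allele that Cre converts to a stabilized β-catenin, and a Cre recombinase under the probasin promoter, which acts in prostate epithelium. Castration was done at 4 months, the mice were analyzed at 8 months, and the intact mice had the same age and genotype. The strain background was a mixture of C57BL/6 and C3H SCID, and SCID mice lack mature lymphocytes where the allele is homozygous, which the labels do not state. Since both groups carry the transgenes, the comparison addresses the effect of androgen withdrawal within this model and not that of the transgenes.

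The proteins work in 3 layers. BCL2, BCL-XL (encoded by Bcl2l1) and MCL1 hold the outer membrane intact. The BH3-only proteins BIM (Bcl2l11), PUMA (Bbc3), NOXA (Pmaip1), BID and BAD sense stress and occupy the survival proteins or activate the pore formers. BAX and BAK1 form the pore through which cytochrome c leaves, after which caspases are activated. In normal prostate, loss of androgen is known to trigger apoptosis of luminal epithelial cells, which makes this family a natural readout of castration. Much of its control lies in protein turnover, phosphorylation and cleavage, none of which RNA levels show.

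Some members are textbook targets of p53, and Bax and Bbc3 were both highest in the same castrated sample, so their promoters are shown with that of Bid, the member whose groups separated. Promoter sequences were available for 9 of the 10 members in the RefSeq table (build GRCm38.p6, the mm10 assembly), with 15 start sites in all; the Pmaip1 promoter is not shown. Each sequence below holds the 250 bases before the start site, on the gene's own strand. Capitals mark exact matches on both strands to the p53 half-site consensus, to the GC box GGGCGG and to the E-box CACGTG, and overlapping GC boxes run together. The motifs were chosen after the values had been seen.
Bax, chr7:45466899-45467148, minus strand: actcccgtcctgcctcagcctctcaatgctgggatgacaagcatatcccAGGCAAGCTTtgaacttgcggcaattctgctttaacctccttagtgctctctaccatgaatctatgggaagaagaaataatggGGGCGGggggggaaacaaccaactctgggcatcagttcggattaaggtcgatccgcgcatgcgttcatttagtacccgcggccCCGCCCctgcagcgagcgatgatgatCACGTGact
Bbc3, chr7:16309333-16309582, plus strand: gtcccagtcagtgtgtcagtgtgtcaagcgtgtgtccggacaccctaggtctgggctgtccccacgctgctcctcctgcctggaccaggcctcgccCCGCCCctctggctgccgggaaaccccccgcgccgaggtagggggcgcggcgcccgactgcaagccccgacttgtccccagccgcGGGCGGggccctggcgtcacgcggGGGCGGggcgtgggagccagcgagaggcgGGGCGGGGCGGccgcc
Bid, chr6:120916825-120917074, minus strand: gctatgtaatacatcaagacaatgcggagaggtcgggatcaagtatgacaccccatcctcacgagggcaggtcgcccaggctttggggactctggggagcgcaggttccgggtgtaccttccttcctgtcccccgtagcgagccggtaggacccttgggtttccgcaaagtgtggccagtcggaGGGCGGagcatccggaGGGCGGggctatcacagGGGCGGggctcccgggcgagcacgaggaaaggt
The Bax promoter held 1 p53 half-site, beginning at position -201 from the start site, 2 GC boxes and 1 E-box. It was the only one of the 15 member promoters with an exact p53 half-site, and 7.13% of all 32851 mouse promoters of this length hold one. Bbc3 has 3 start sites in the table, and the one nearest the start of the counted gene is shown; another held 7 GC boxes and an E-box. The Bbc3 sequence shown, with a GC content of 76.4%, held 5 GC boxes, and the Bid sequence, at 63.6%, held 3. A GC box occurs in 32.7% and the E-box in 6.02% of all promoters. A match is a description of letters, and the RNA data show nothing about binding there.

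The depth was similar between groups. The castrated libraries held 28015507, 18951782 and 20492061 counts (replicates 1 to 3), and the intact libraries 21560355 and 22853501. The 10 genes together took 0.0985%, 0.119% and 0.0884% of the counts in the castrated samples and 0.109% and 0.0721% in the intact samples. The smallest count behind any value was 111, for Bbc3 in castrated replicate 2, and the largest was 12833, for Mcl1 in the same sample. The common dispersion estimated by edgeR was 0.238, so differences between mice set the precision, and not counting error.

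The libraries differed in ways that cut across the groups. Epithelial keratins and adhesion genes were abundant in every sample, with all 9 markers above 0 and a summed CPM (counts scaled to a common library size after TMM, the trimmed mean of M-values) of 4307, 3957 and 4887 in castrated and 6287 and 4418 in intact samples. Within the epithelial list, Krt5 was at 28.9 CPM in intact replicate 1 and 405 in intact replicate 2, and Krt14 at 14.3 and 139. The castrated samples lay between these values for both genes. Prostate secretory markers summed to 82.7, 110 and 290 in castrated replicates 1 to 3 and 27.1 in intact replicate 1, against 2314 in intact replicate 2. Within this list Tgm4, a secreted transglutaminase, was at 1347 CPM in intact replicate 2 and below 1 CPM in the other samples. Msmb was at 0 in all 5. Pbsn, which encodes probasin, reached 5.21 CPM in intact replicate 2 and was at 0 in castrated replicate 2 and intact replicate 1. Intact replicate 1 thus held far less of the secretory genes than its intact partner. Across genes, which are not independent replicates, log2 CPM correlated at 0.848 between the intact samples and at 0.885 to 0.937 among the castrated samples, with castrated replicates 2 and 3 the closest pair. Castrated replicate 1 correlated at 0.922 with intact replicate 1, and the other pairs across the groups at 0.819 to 0.875.

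Other cell types also left traces. Macrophage markers, led by Cd68, summed to 1102, 2961 and 1504 CPM in the castrated samples and to 655 and 663 in the intact samples, with all 10 above 0 throughout. Adipocyte markers, led by Lpl, summed to 195, 2895 and 2110 against 64.3 and 266, and 7 of the 11 were at 0 in at least 1 sample. Castrated replicates 2 and 3 thus held far more adipocyte signal than castrated replicate 1. Fibroblast markers, led by Dcn, summed to 4490, 5519 and 7303 against 4169 and 2516, and smooth muscle markers, led by Acta2, to 414, 723 and 667 against 247 and 157. Within the fibroblast list, Dcn, Lum, Thy1 and Pdgfra had log2 fold changes of 2.35, 2.23, 1.68 and 1.52. Those of Col1a1, Col1a2 and Col3a1 were -0.36, 0.01 and 0.09. Endothelial markers, led by Cdh5, summed to 740, 349 and 413 against 585 and 208, a sum that did not separate the groups. Within the endothelial list, Pecam1, Kdr and Tek were higher in all castrated samples, with log2 fold changes of 0.73, 0.94 and 1.36. Over all genes tested, 17.0% were apart in that direction. Groups overlapped for Cdh5, Emcn, Vwf, Flt1 and Cldn5. Neutrophil markers, led by S100a9, summed to 194, 168 and 104 against 104 and 126. T cell markers, led by Cd4, summed to 20.6, 62.1 and 61.6 against 13.6 and 41.7. B cell markers, led by Cd22, summed to 16.0, 96.6 and 103 against 3.85 and 10.6. Proliferation markers, led by Pcna, summed to 150, 206 and 214 CPM in castrated and to 392 and 458 in intact samples. All markers found in the table were above 0 in every sample for fibroblasts (7), smooth muscle (8), endothelial cells (8), neutrophils (9), T cells (8) and proliferating cells (9), and 5 of 6 were for B cells. Hemoglobin genes, examined after their values were seen, summed to 1975 CPM in castrated replicate 1 and to between 4.66 and 185 in the other samples. In bulk RNA, fewer cells of a type and less RNA per cell cannot be told apart, and the part of these cell types in the levels below was not tested.

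Of the 10 members, 0 were called by the quasi-likelihood F-test of edgeR, where a call needs a fold change beyond 1 on the log2 scale in either direction and a p under 0.05 after Benjamini-Hochberg (BH) adjustment. The same held for the table as a whole, with 0% of the 14612 genes tested called and a smallest BH-adjusted p of 0.320. Without adjustment, 0 members had a p under 0.05 in either direction, where 8.29% of all genes tested were higher and 5.93% lower in castrated samples. A higher mean in castrated samples was seen for 6 members and a lower mean for 4, with a median log2 fold change of 0.19 against -0.03 over all genes tested. In 1 member, Bid, the groups did not overlap, with all castrated samples lower, and in 0 were all castrated samples higher. Over all genes tested, 16.1% separated in the first direction and 17.0% in the second, so that 1 of 10 is no more than the background. With 3 samples against 2, a standard error of 0.24 to 0.58 on the log2 scale accompanied the members' fold changes. DESeq2 and the likelihood ratio test of edgeR called 0 members, whereas over the whole table they called 6.79% and 2.53% of the genes tested.

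**Figure D1:**
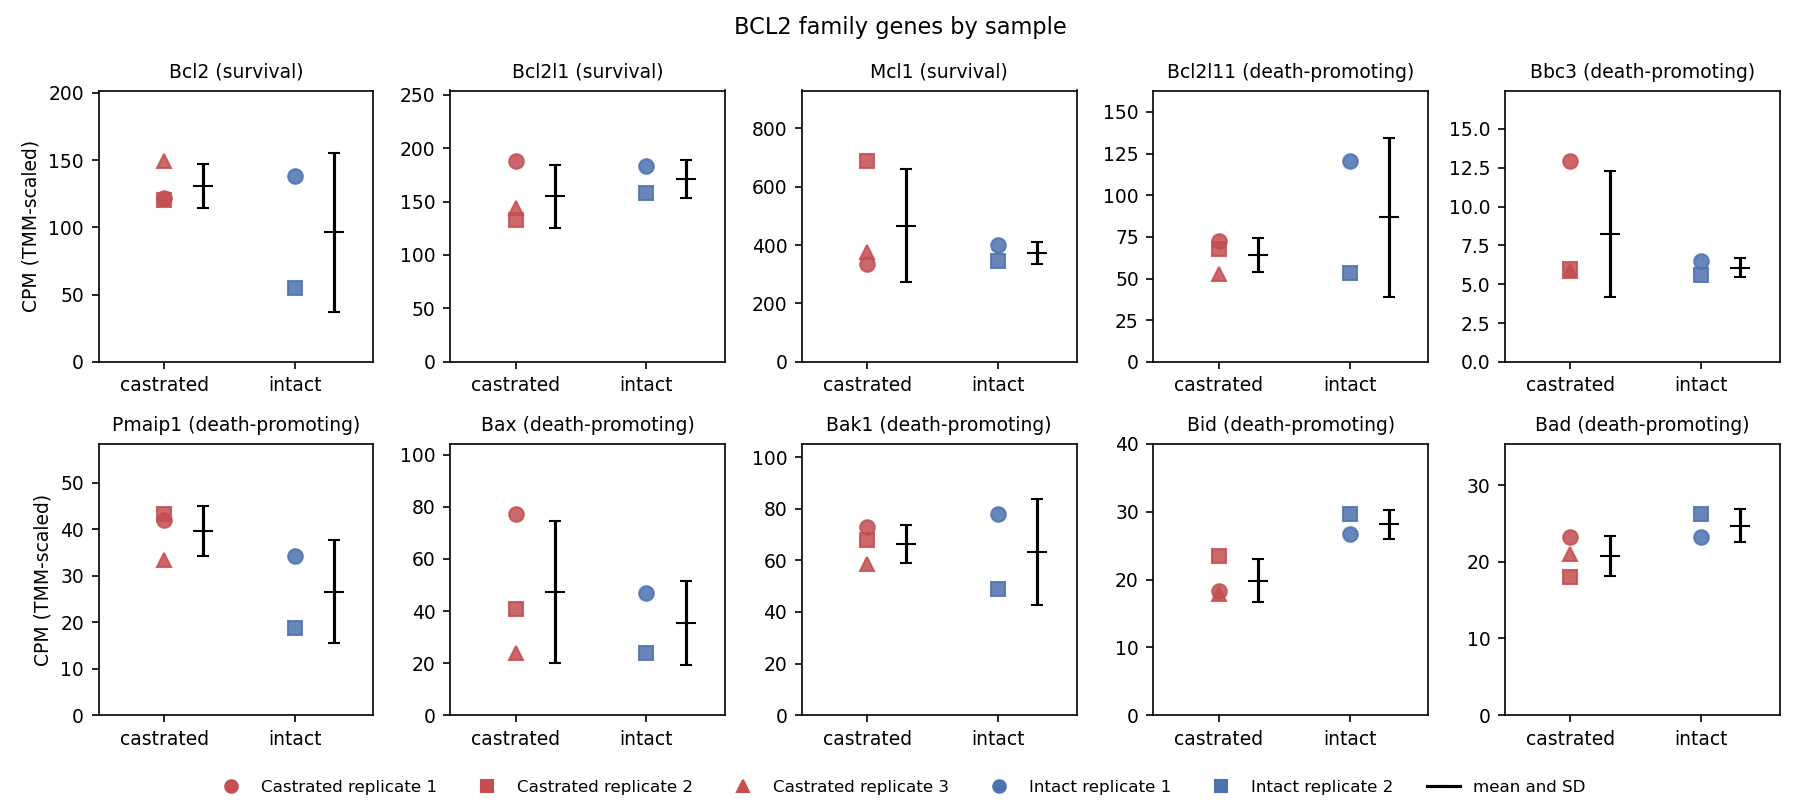
TMM-scaled CPM of each of the 10 genes in castrated (red) and intact (blue) samples, with 1 point per mouse, the marker shape giving the replicate number, and the group mean and SD in black beside the points (n = 3 castrated, n = 2 intact; each vertical axis starts at 0 and has its own scale). Only in the Bid panel do the castrated points, at 17.8 to 23.5 CPM, all lie below both intact points, at 26.7 and 29.7 CPM.

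Among the survival members, Bcl2 (chr1:106538176-106714290, minus strand), the founding member of the family, had a CPM of 122, 121 and 149 in castrated replicates 1 to 3, against 138 in intact replicate 1 and 54.6 in its partner. The castrated samples lay close together, and the intact pair differed from each other more than the groups did. The means were 131 ± 16.3 (SD, n = 3) and 96.4 ± 59.1 (SD, n = 2), and the log2 fold change was 0.44 (standard error 0.42, BH-adjusted p = 0.668, edgeR). Leaving out intact replicate 2 gave -0.12, and leaving out intact replicate 1 gave 1.28, so a single intact mouse decided the direction.

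Bcl2l1 (chr2:152758732-152831728, minus strand), whose main product BCL-XL guards epithelial cells and binds BAK1 and BAX, was the steadiest of the 3 survival genes. Its CPM was 188, 133 and 144 in castrated and 183 and 158 in intact samples, with castrated replicate 1 above and the other castrated samples below both intact samples. The log2 fold change was -0.14 (standard error 0.24, BH-adjusted p = 0.808, edgeR). It ranged from -0.31 to -0.01 when each sample was left out. Gene counts do not separate BCL-XL from the short, death-promoting splice form of this gene.

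Mcl1 (chr3:95658721-95663178, plus strand) encodes a short-lived protein that needs constant synthesis and holds BAK1 and BIM. Its CPM was 334, 688 and 377 in castrated and 399 and 347 in intact samples. The castrated mean of 466 ± 193 (SD, n = 3) rested on castrated replicate 2, the sample with the highest macrophage and adipocyte marker sums, whose part in this level was not tested. The intact mean was 373 ± 36.4 (SD, n = 2) and the log2 fold change 0.32 (standard error 0.39, BH-adjusted p = 0.733, edgeR). Without castrated replicate 2 it was -0.06.

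Among the BH3-only members, Bcl2l11 (chr2:128126038-128162547, plus strand) encodes BIM, which binds all survival proteins. Its CPM was 72.2, 68.0 and 52.7 in castrated samples, against 121 in intact replicate 1 and 53.1 in intact replicate 2. Intact replicate 1 alone stood high, and the log2 fold change of -0.43 (standard error 0.39, BH-adjusted p = 0.641, edgeR) was 0.30 without it.

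Bbc3 (chr7:16309583-16318334, plus strand) encodes PUMA, a main effector of p53-induced apoptosis, and was the least abundant member. Its CPM was 12.9, 5.95 and 5.85 in the castrated samples, against 6.50 and 5.62 in the intact samples. Castrated replicate 1 stood apart, and the other castrated samples fell between the intact ones. The log2 fold change was 0.45 (standard error 0.51, BH-adjusted p = 0.716, edgeR) with all samples and -0.04 without castrated replicate 1.

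Pmaip1 (chr18:66458604-66465558, plus strand) encodes NOXA, which binds MCL1 and promotes its degradation. It had the highest log2 fold change of the members, 0.58 (standard error 0.33, BH-adjusted p = 0.467, edgeR). The CPM was 42.0, 43.2 and 33.4 in castrated samples (mean 39.5 ± 5.37, SD, n = 3) and 34.3 and 18.7 in intact samples (mean 26.5 ± 11.0, SD, n = 2). Castrated replicates 1 and 2 lay above both intact samples and castrated replicate 3 between them. The log2 fold change stayed above 0 when each sample was left out in turn, from 0.16 without intact replicate 2 to 1.10 without intact replicate 1. The 3 genes outside the lists with the pattern most like that of Pmaip1 were Pmepa1, Slc36a1 and Cmtm7, with a root mean square distance of centred log2 CPM of 0.04, 0.05 and 0.07 over the 5 samples.

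Bid (chr6:120893119-120916824, minus strand) encodes the BH3-only protein that caspase 8 cleaves, which links death receptors to mitochondria. It had the lowest log2 fold change, -0.50 (standard error 0.24, BH-adjusted p = 0.402, edgeR), and 3 of 3 castrated samples lay below both intact ones. The CPM was 18.2, 23.5 and 17.8 in castrated samples (mean 19.9 ± 3.15, SD, n = 3) and 26.7 and 29.7 in intact samples (mean 28.2 ± 2.12, SD, n = 2). The gap between castrated replicate 2 and intact replicate 1 was narrow, and the log2 fold change lay between -0.63 and -0.42 when each sample was left out. In the GENCODE M21 annotation, 628 exon bases of Bid are shared with Bcl2l13, a neighboring family member on the other strand. A strand setting for the counting is not given in the sources used here, so reads of both genes cannot be told apart over those bases. Bcl2l13 had a CPM of 51.8, 50.9 and 44.5 in castrated and 51.9 and 64.9 in intact samples, also with all castrated samples lower, and its log2 fold change was -0.25 (standard error 0.20, BH-adjusted p = 0.605, edgeR). Castrated replicate 1 was nearly level with intact replicate 1 for Bcl2l13. Its log2 fold change was -0.12 without intact replicate 2 and -0.38 without intact replicate 1. The genes most like Bid in pattern were Smug1, Uhrf1bp1l and Ap4e1, at a distance of 0.01, 0.04 and 0.06. In all, 68 genes lay within 0.1 of Bid, against 11 for Pmaip1.

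Bad (chr19:6941861-6951905, plus strand) encodes a BH3-only protein that growth factor signaling holds inactive by phosphorylation. Its CPM was 23.2, 18.0 and 20.9 in castrated and 23.2 and 26.2 in intact samples, with castrated replicate 1 level with intact replicate 1. The log2 fold change was -0.25 (standard error 0.24, BH-adjusted p = 0.653, edgeR), and its direction held when each sample was left out, from -0.34 to -0.15. Bad shares 524 exon bases with Gpr137 on the other strand, which had a log2 fold change of -0.30.

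Of the pore formers, Bax (chr7:45461695-45466898, minus strand), which waits in the cytosol until activated, varied most among the members, with a ratio of highest to lowest sample of 3.23. The CPM was 77.2, 40.9 and 23.9 in castrated and 46.8 and 23.9 in intact samples. Castrated replicate 1 lay above both intact samples, and the other castrated samples lay between them, castrated replicate 3 level with intact replicate 2. The log2 fold change was 0.42 (standard error 0.58, BH-adjusted p = 0.767, edgeR), and it was -0.12 without castrated replicate 1 and -0.02 without intact replicate 2. Bax shares 192 exon bases with the overlapping gene model Gm45808 on the same strand.

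Bak1 (chr17:27019812-27028627, minus strand), the pore former that sits in the outer membrane, had a CPM of 72.9, 67.7 and 58.5 in castrated samples, all between the intact values of 77.9 and 48.9. Its log2 fold change of 0.07 (standard error 0.27, BH-adjusted p = 0.929, edgeR) was the smallest in size of the 10. It shares 614 exon bases with Ggnbp1 on the other strand, a gene at 1.16 CPM or less in every sample. In the same way Bcl2 shares 558 exon bases with the antisense transcript D630008O14Rik.

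**Figure D2:**
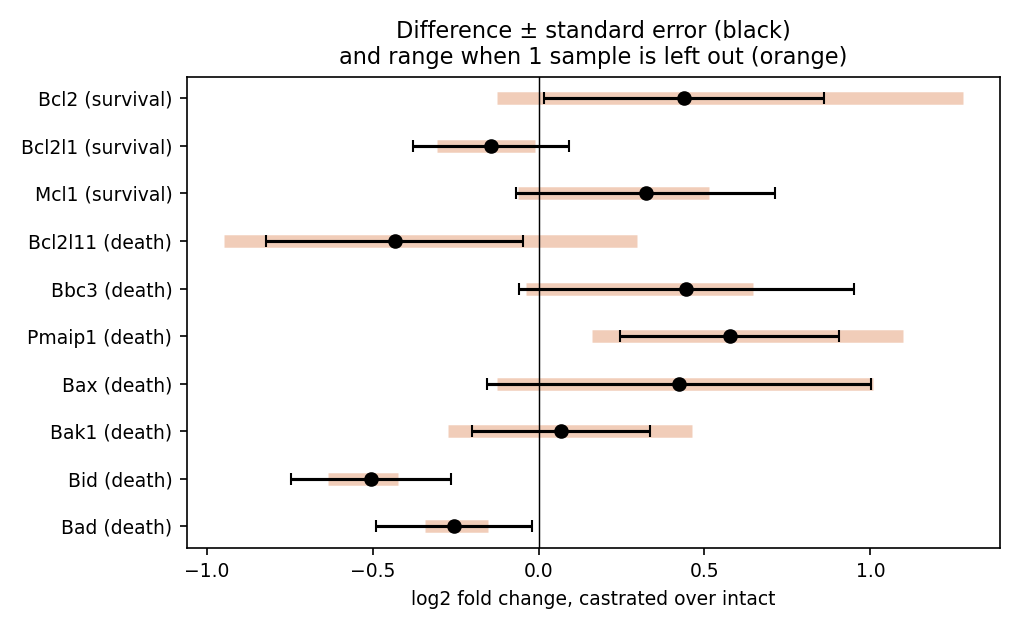
Log2 fold change of castrated over intact samples for each member (black point) with its standard error (black bar) and the range of the estimate when each of the 5 samples was left out in turn (orange band), with 0 as the vertical line. The orange bands of Bcl2l1, Pmaip1, Bid and Bad stay on 1 side of 0, whereas those of Bcl2, Mcl1, Bcl2l11, Bbc3, Bax and Bak1 cross it.

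Seen by sample, the members did not move together. Of the 10 genes, 3 were highest in castrated replicate 1, 2 in castrated replicate 2, 1 in castrated replicate 3, and 2 in each intact sample. The lowest value fell in intact replicate 2 for 5 genes, in castrated replicates 2 and 3 for 2 each and in castrated replicate 1 for 1, whereas intact replicate 1 was lowest for 0 of them. Those 5 genes, Bcl2, Bbc3, Pmaip1, Bax and Bak1, were low in the intact sample that carried the prostate secretory markers. Over all genes tested, intact replicate 2 held the lowest value for 27.5%. What the secretory cells contributed to this was not tested.

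Levels between genes were compared per length, as TPM, in which counts are divided by length and scaled to a common total, with the gene lengths of the deposited table. Mcl1 was the most abundant, at a mean of 282 TPM over the 5 samples (range 185 to 467), and was above the next gene in all 5 samples. Bax followed at 114 (51.3 to 210) and Bcl2l1 at 113 (90.3 to 139). These neighbors could not be ordered, as Bax was the higher of the pair in 2 of 5 samples. The place of Bax depends on its length in the table, 0.863 kb, the shortest of the members. Bak1 at 74.4 TPM (44.9 to 95.4) lay below Bcl2l1 in all 5 samples and above Bcl2 at 37.0 (13.8 to 47.2). A group without clear order came next, with Bad at 33.2 (28.0 to 37.7), Pmaip1 at 30.0 (13.1 to 38.6), Bid at 27.6 (21.9 to 34.8) and Bcl2l11 at 23.8 (13.8 to 41.8). Bbc3 was the lowest in all 5 samples, at a mean of 8.57 TPM (5.29 to 15.4).

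**Figure D3:**
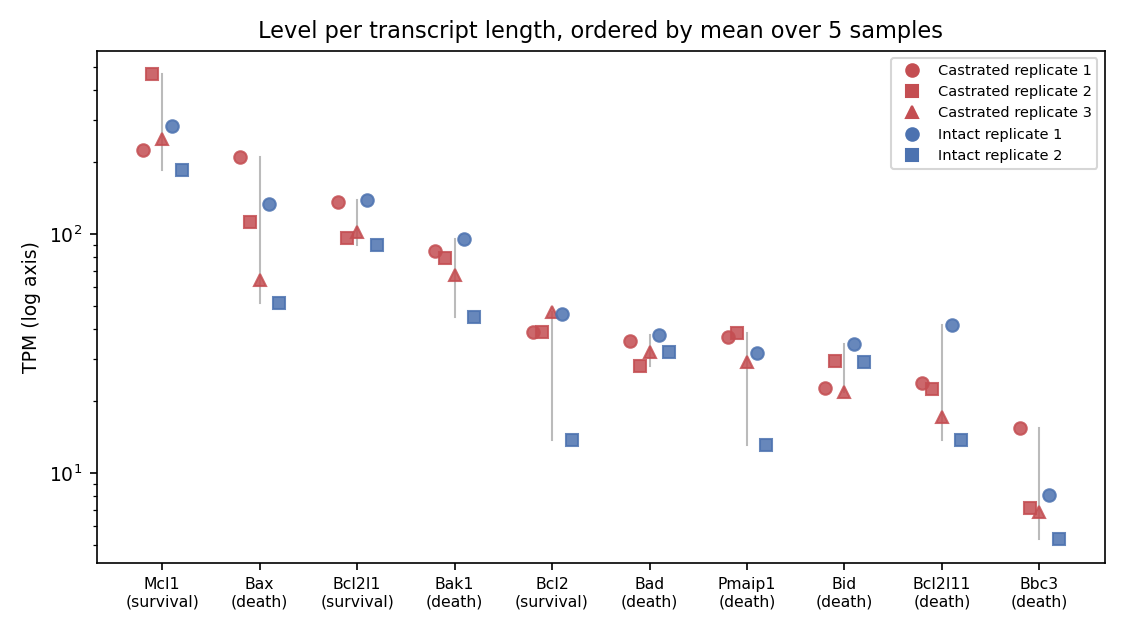
TPM of each member on a log axis, ordered by the mean over the 5 samples, with 1 point per mouse (red castrated, blue intact) and a gray line from the lowest to the highest sample. Mcl1 lies at the top, between 185 and 467 TPM, and Bbc3 at the bottom, between 5.29 and 15.4 TPM, while Bad, Pmaip1 and Bid overlap.

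The balance of the 2 arms was described by the summed TPM of each, since the rule that chose the genes sets survival against death-promoting members. The 3 survival genes summed to 400, 603 and 400 TPM in castrated and to 468 and 289 in intact samples. The 7 death-promoting genes summed to 430, 317 and 239 in castrated and to 384 and 190 in intact samples. The ratio of survival to death-promoting TPM was 0.931, 1.90 and 1.68 in castrated and 1.22 and 1.52 in intact samples. Castrated replicate 1 was the only sample where the death-promoting sum was the larger, and the other castrated samples had the highest ratios of the 5, so the castrated group lay on both sides of the intact one. The log2 ratio averaged 0.52 ± 0.55 (SD, n = 3) with castration and 0.45 ± 0.23 (SD, n = 2) without it, a difference of 0.08 that is smaller than the spread in either group. Without castrated replicate 1 the difference was 0.39, with both remaining castrated samples above both intact samples. No p was computed, because the genes were proposed with results of these data known.

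Mcl1 carried most of the survival arm, at 56.3%, 77.5% and 62.6% of its TPM in castrated and 60.3% and 64.0% in intact samples. Without Mcl1 the ratio was below 1 in every sample, at 0.407, 0.427 and 0.627 against 0.484 and 0.549. Against the 5 BH3-only genes alone, the survival genes were in excess throughout, at 2.96, 4.79 and 3.74 in castrated and 3.03 and 3.09 in intact samples, with castrated replicate 1 again the lowest. On the death-promoting side Bax took 48.9%, 35.3% and 26.9% of the TPM in castrated and 34.9% and 27.1% in intact samples. The ratio of Bcl2 to Bax, often used as a single index, was 0.185, 0.346 and 0.734 in castrated and 0.347 and 0.268 in intact samples, so the castrated samples alone covered the lowest and the highest value. The ratio of Bax to Bak1 was 2.48, 1.41 and 0.955 in castrated and 1.40 and 1.14 in intact samples.

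**Figure D4:**
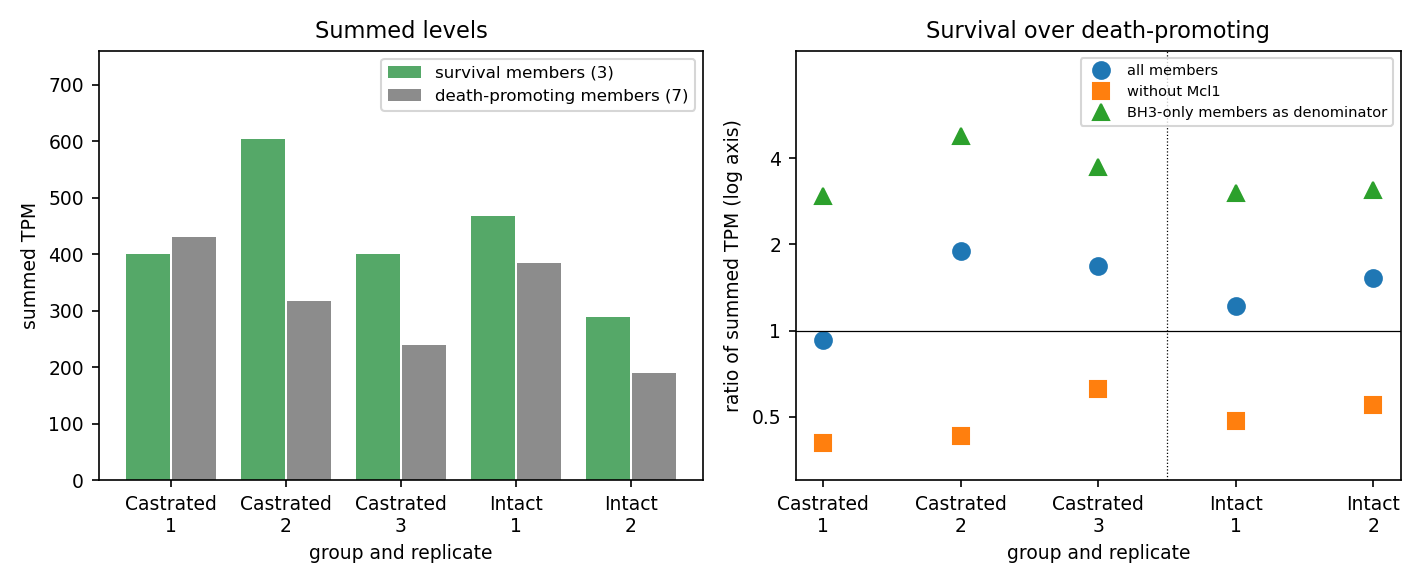
Left, summed TPM of the 3 survival (green) and 7 death-promoting (gray) members in each sample; right, the ratio of the sums on a log axis for all members (circles), without Mcl1 (squares) and with the BH3-only members as denominator (triangles), the dotted line parting castrated from intact samples. The circle of castrated replicate 1, at 0.931, is the only one below 1, and the squares are all below 1.

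The other genes of the pathway were described by list. None of these lists held a gene called by edgeR's quasi-likelihood F-test. Together they held 6 genes at an unadjusted p under 0.05, where 8.29% of all genes tested were higher and 5.93% lower at that level. DESeq2 and the likelihood ratio test each called 1, against 6.79% and 2.53% of all genes tested. Of 17 other BCL2 family genes 14 were tested (Bcl2l10, Hrk and Bcl2l15 did not pass the filter), with 5 higher and 9 lower in mean, a median log2 fold change of -0.20, 0 at an unadjusted p under 0.05, and groups apart in 1 higher and 4 lower, where 17.0% of all genes tested were apart and higher and 16.1% apart and lower. The higher one was Bcl2a1b, a copy of the survival gene A1 expressed in leukocytes, at 10.6, 29.3 and 15.7 CPM in castrated and 6.81 and 10.1 in intact samples, and the log2 fold change was 1.13 (standard error 0.53, BH-adjusted p = 0.396, edgeR), or 0.64 without castrated replicate 2. This value is uncertain, as near-identical copies can share reads, and its order over the samples follows the macrophage markers, whose part was not tested. The copies Bcl2a1a and Bcl2a1d, named after their values were seen, had overlapping groups. Their log2 fold changes were 0.74 (standard error 0.54) and 0.79 (standard error 0.76). Bnip3, a hypoxia-induced gene that targets mitochondria for removal, stood at a log2 fold change of -0.64 (standard error 0.29, BH-adjusted p = 0.382, edgeR), from -0.99 without intact replicate 2 to -0.24 without intact replicate 1, and was the most abundant of the list per length. The other separated genes, named after their values were seen, were Bcl2l12, Bcl2l13 and Bnip1, all lower. Bcl2l2, which encodes the survival protein BCL-W, had a log2 fold change of -0.41 and overlapping groups, and was also named after its values were seen.

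Downstream of the pore, all 10 apoptosome and caspase genes were tested, with 5 higher and 5 lower, 0 at an unadjusted p under 0.05 and a median log2 fold change of -0.04. Groups were apart in 2, both higher in castrated samples, near the 17.0% of all genes tested. Of these, Casp9, the initiator caspase that the apoptosome activates, was at 30.6, 46.5 and 41.9 CPM in castrated and 17.2 and 29.1 in intact samples (log2 fold change 0.78, standard error 0.34, BH-adjusted p = 0.375, edgeR), from 0.46 without intact replicate 1 to 1.17 without intact replicate 2. Casp8, the initiator caspase of death receptors and the most abundant of the list per length, had a log2 fold change of 0.09. Apaf1, the scaffold of the apoptosome, was at -0.26 and Cycs, which encodes cytochrome c, at -0.30. Apaf1 and Cycs were named after their values were seen. Of 6 other mitochondrial genes, which include channels and fission and fusion factors, 6 were lower in mean, with 0 at an unadjusted p under 0.05, a median of -0.19 and groups apart in 1 (16.1% of all genes tested were apart and lower), the channel gene Vdac1 at -0.36. Vdac2, which holds BAK1 in the membrane and was the most abundant of the list per length, was at -0.28.

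Inhibitor of apoptosis genes and their antagonists were lower in mean in 6 of 7, with a median log2 fold change of -0.53. Birc5, which encodes survivin, a mitotic protein as well as an inhibitor of apoptosis, was at 3.42, 4.77 and 5.75 CPM in castrated and 15.8 and 16.2 in intact samples. The log2 fold change was -1.78 (standard error 0.36, BH-adjusted p = 0.320, edgeR), and 3 of 3 castrated samples lay below both intact ones. It was the only gene of the list at an unadjusted p under 0.05, where 5.93% of all genes tested were lower at that level, and DESeq2 and the likelihood ratio test called it at an adjusted p of 0.000216 and 0.0316. The summed proliferation markers were likewise below both intact values in all 3 castrated samples, and their part in Birc5 was not tested. Birc3, which by mean TPM led the list closely ahead of Birc2 (54.6 against 54.2, and not in every sample), was at -0.11. Birc2, named after its values were seen, was at -1.09 with overlapping groups. Its CPM was 188 in intact replicate 2 and 53.3 to 67.1 in the other samples. The other separated genes were Birc6 and Diablo, lower at -0.67 and -0.53, and Htra2, higher at 0.54, against 16.1% of all genes tested apart and lower and 17.0% apart and higher. Diablo and Htra2 encode proteins that leave the mitochondrion and block inhibitors of apoptosis. These 3 were named after their values were seen.

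Among regulators of the family 14 of 15 were tested (Trp73 did not pass the filter), with 8 higher and 6 lower, a median of 0.05, and 2 lower at an unadjusted p under 0.05, against 5.93% of all genes tested. These were Mdm4, an inhibitor of p53, at 106, 82.1 and 115 CPM against 131 and 234 (log2 fold change -0.85, standard error 0.31, BH-adjusted p = 0.340), and Huwe1, a ubiquitin ligase of MCL1, at -0.63 (standard error 0.24, BH-adjusted p = 0.342, edgeR). Mdm4 was at -0.41 without intact replicate 2 and -1.19 without intact replicate 1, and of the fits with 1 sample left out both genes kept an unadjusted p under 0.05 only in the one without intact replicate 1, and neither kept it with a replicate block. Trp53 itself was at 95.4, 75.7 and 87.4 CPM in castrated and 114 and 113 in intact samples, with all castrated samples lower and a log2 fold change of -0.40. It was 1 of 3 regulators whose groups were apart, all lower, against 16.1% of all genes tested. Ywhaz, an adaptor that holds phosphorylated BAD in the cytosol and was the most abundant of the list per length, was at 0.01. Huwe1 and Trp53 were named after their values were seen.

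The last list holds genes outside the family that p53 is known to induce. All 18 were tested, and 17 had a higher mean in castrated samples, against 47.9% of all genes tested, with a median log2 fold change of 0.58. Unadjusted p was under 0.05 in 3, all higher, against 8.29% of all genes tested, and groups were apart in 5, all higher, against 17.0%. Sesn1, a stress sensor that restrains growth signaling, was at 24.0, 63.6 and 58.2 CPM in castrated and 15.6 and 18.3 in intact samples (log2 fold change 1.52, standard error 0.48, BH-adjusted p = 0.326, edgeR). Sesn2, its relative, was at 39.4, 32.2 and 18.9 against 13.2 and 13.6 (log2 fold change 1.17, standard error 0.38, BH-adjusted p = 0.327, edgeR). Cdkn1a, the cell cycle inhibitor p21 and the most abundant of the list per length, was at 376, 268 and 136 against 194 and 83.0, with overlapping groups and a log2 fold change of 0.91 (standard error 0.57, BH-adjusted p = 0.507, edgeR), from 0.38 without intact replicate 2 to 1.67 without intact replicate 1. The other separated genes, named after their values were seen, were Btg2 at 0.84, Trp53inp1 at 0.93 and the death receptor Fas at 0.62. Perp was the exception with a lower mean, at -0.50, and Mdm2, which is both a target and an inhibitor of p53 and counts in this list and among the regulators, was at 0.10. Perp and Mdm2 were named after their values were seen.

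Castrated replicate 1, where Bax and Bbc3 were highest, was the highest sample for 13 of the 18 genes, whereas it was the highest for 15.2% of all genes tested. Intact replicate 2 was the lowest for 9 and intact replicate 1 for 7, against 27.5% and 26.2% of all genes tested. Without castrated replicate 1, 11 of the 18 were higher in castrated samples and the median log2 fold change was 0.16. Without intact replicate 2, 12 were higher and the median was 0.37. The number was 16 when any other single sample was left out. The median was 0.81 without castrated replicate 3 and 1.14 without intact replicate 1, so either intact sample moved it by more than 1.5 times. Leaving out castrated replicate 1 thus turned the sign of Bax and of Bbc3 and lowered the median of the list. Castrated replicate 1 was the deepest library and the one with the most hemoglobin counts, and the part of either in these levels was not tested.

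**Figure D5:**
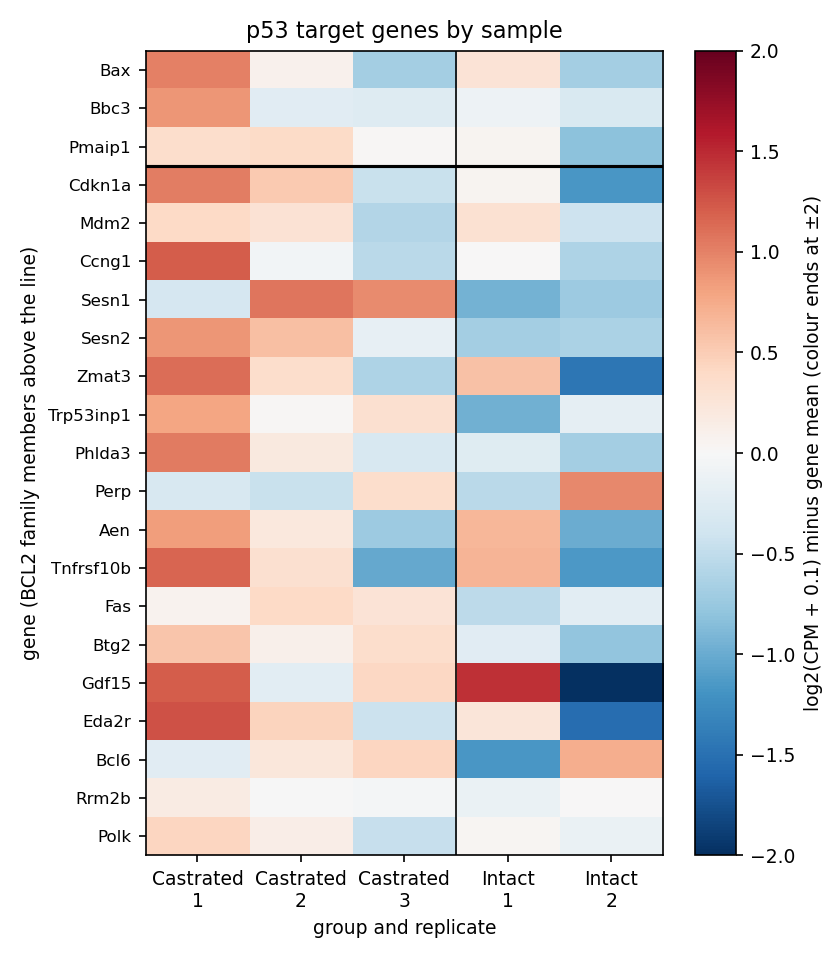
Log2(CPM + 0.1) minus the mean of each gene over the 5 samples (red above, blue below the mean) for Bax, Bbc3 and Pmaip1, above the horizontal line, and 18 other p53 target genes, with castrated samples left of the vertical line. The column of castrated replicate 1 is red for Bax and Bbc3 and holds the highest value in 13 of the 18 other genes, whereas Sesn1 is highest in castrated replicate 2.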

How the data were processed

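RNA was extracted from fresh prostate and ribosomal RNA-depleted libraries were sequenced as paired ends. The authors trimmed reads with Trimmomatic 0.39, used STAR 2.7.9 to align them to mm10 and HTSeq 2.0.2 to count them per gene, per the labels and methods, and deposited raw counts with gene lengths. A strand setting is not given in the sources used here, so counts of overlapping genes are uncertain.

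Counts were analyzed in R 4.3.3 with edgeR 4.0.16, limma 3.58.1 and DESeq2 1.42.0. Of 24527 genes in the table, 14612 had a CPM over 1 in 2 or more samples. These were scaled by TMM and tested with the quasi-likelihood F-test of edgeR, adjusting p over all of them by Benjamini-Hochberg. A call needed p under 0.05 after adjustment and a log2 fold change beyond 1 in size. The study's methods name TPM as input, and here raw counts were the input and TPM an alternative. The standard error is the size of the log2 fold change over the root of the F statistic. TPM used the deposited gene lengths. Coordinates are those of mm10 and count from 1. The procedure was tested on simulated counts.

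The members and lists were chosen with earlier results of these data known. Named genes were all members and, from each list, genes with separate groups and an absolute log2 fold change above 1, the gene with the largest change and the most abundant gene per length; those named outside this rule are marked. For the members with the highest and the lowest log2 fold change, the 3 nearest genes by centred log2 CPM were also named. The marker genes Trac and Ighm were not analysed here, and some genes of the lists are counted but not reported by name.

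Samples were grouped by their labels, 5 animals in all, and none was left out. No pair of replicates held the same library, with a chi-square per gene of 116 or more. Samples that share a number come from different mice, so the replicate number was used as a block only in an alternative. The other alternatives were DESeq2, other scalings and filters, the likelihood ratio test, limma voom, TPM with limma trend, each sample left out in turn and, chosen after seeing the data, the newer quasi-likelihood fit of edgeR.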

Additional observations from a re-analysis of the deposited data

How the results depend on the processing

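The 10 members gave 0 calls under all 15 alternatives, whereas over all genes the count of 0 became 989 with DESeq2, 369 with the likelihood ratio test and 0 to 1 when each sample was left out. Among the other pathway genes both of those tests called 1, Birc5 (log2 fold change -1.79 and -1.78). In the fit with a replicate block the count over all genes was 0, Bid was at -0.44 and the median of the p53 targets at 0.93. Same-numbered samples correlated in their deviations at 0.15 (replicate 1) and -0.05 (replicate 2). With 2 intact samples their deviations mirror each other, so these values cannot show whether the numbers pair mice. At an unadjusted p under 0.05 there were 2 members without intact replicate 1 (Bcl2 and Pmaip1), 1 without intact replicate 2 (Bcl2l11) and 0 otherwise, and over all genes 2079, against 940 with the block and 930 to 3181 when each sample was left out. Other pathway genes at that level numbered 6, against 11 with DESeq2 and with TPM and 3 to 11 when each sample was left out, and p53 targets 3, against 5 with DESeq2, TPM and the block and 1 to 4 when each sample was left out. The sign turned for Birc3 with TPM (0.090); the cause was not tested. With each sample left out, log2 fold changes ranged from -0.12 to 1.28 for Bcl2, -0.062 to 0.51 for Mcl1, -0.95 to 0.30 for Bcl2l11, -0.038 to 0.65 for Bbc3, -0.12 to 1.01 for Bax and -0.27 to 0.46 for Bak1, and in the other genes whose sign turned from -0.36 to 0.67 for Casp8, -0.56 to 0.56 for Birc3, -0.57 to 0.039 for Vdac2, -0.26 to 0.29 for Ywhaz, -0.26 to 0.53 for Mdm2, -0.55 to 0.047 for Apaf1, -0.63 to 0.075 for Cycs and -1.04 to 0.41 for Perp. Among genes that kept their sign, intact replicate 1 or 2 also moved Birc6 (-1.04 to -0.17), Bcl2l2 (-0.71 to -0.08), Trp53inp1 (0.61 to 1.33), Btg2 (0.54 to 1.16) and Diablo (-0.69 to -0.36), and Birc5 stayed between -1.96 and -1.60. The number of members with a higher mean in castrated samples ranged from 3, without castrated replicate 1 or intact replicate 2, to 7, without intact replicate 1. The difference in log2 balance of 0.08 was 0.22 with CPM sums, -0.11 without Mcl1 0.30 against BH3-only genes and -0.13 to 0.39 when each sample was left out, so its sign was not fixed. The 0.39 arose without castrated replicate 1, when both remaining castrated samples lay above both intact samples. With 2 intact mice that differ from each other in secretory genes and in Krt5 and Krt14, the data limit what can be said about castration for any single member.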
